A study of Mus musculus with 4 samples.

Results

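The 8 genes described here, P2rx7, Ltb4r1, Ptger2, Ptger4, Gpr183, Adora2a, Nt5e and Entpd1, encode receptors for extracellular purines, leukotrienes, prostaglandins and oxysterols and the surface enzymes that turn extracellular ATP into adenosine. They were taken by name from the 31053 genes counted, with earlier results of these data known. They were followed in T cells sorted by FACS from 2 tissues of female C57BL/6 mice, the meninges and the choroid plexus, and profiled by single-cell RNA-seq of the 5′ ends of transcripts. Young mice were 10 weeks old and aged mice 18 months old. No group had received a treatment or carried an engineered allele according to the sources used here. Each of the 4 libraries, 1 for each tissue at each age, was pooled from 5 mice. With 1 library per age and tissue, every comparison is between single libraries, and no p-value is given.

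These genes read small molecules that leave injured or activated cells. ATP opens the channel P2RX7, CD39 (Entpd1) and CD73 (Nt5e) convert ATP stepwise into adenosine, and adenosine signals through the receptor encoded by Adora2a, which raises cyclic AMP and restrains T cell activation. Leukotriene B4 attracts cells through BLT1 (Ltb4r1), prostaglandin E2 raises cyclic AMP through EP2 (Ptger2) and EP4 (Ptger4), and EBI2 (Gpr183) guides lymphocytes along gradients of oxysterols. Regulatory T cells are known for carrying CD39 and CD73, and activated or tissue T cells for P2RX7.

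The promoters of 3 of the genes are shown because Ltb4r1 and Ptger2 held the largest differences between aged and young libraries and Gpr183 held none past the rule of size. Each is the 250 bases before the RefSeq start on GRCm38.p6, written 5′ to 3′ on the strand of the gene, and capitals mark letters that match a motif searched on both strands. The stretches lie at chr14:55765712-55765961 (plus strand), chr14:44987861-44988110 (plus strand) and chr14:121965194-121965443 (minus strand).
Ltb4r1: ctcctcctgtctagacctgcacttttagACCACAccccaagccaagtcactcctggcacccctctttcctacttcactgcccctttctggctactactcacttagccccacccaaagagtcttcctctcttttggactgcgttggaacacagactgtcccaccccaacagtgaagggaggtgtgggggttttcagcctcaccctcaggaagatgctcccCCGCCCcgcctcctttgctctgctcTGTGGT
Ptger2: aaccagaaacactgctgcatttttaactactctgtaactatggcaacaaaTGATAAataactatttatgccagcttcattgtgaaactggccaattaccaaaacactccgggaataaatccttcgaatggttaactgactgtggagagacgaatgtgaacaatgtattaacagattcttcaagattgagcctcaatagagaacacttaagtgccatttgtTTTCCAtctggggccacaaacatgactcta
Gpr183: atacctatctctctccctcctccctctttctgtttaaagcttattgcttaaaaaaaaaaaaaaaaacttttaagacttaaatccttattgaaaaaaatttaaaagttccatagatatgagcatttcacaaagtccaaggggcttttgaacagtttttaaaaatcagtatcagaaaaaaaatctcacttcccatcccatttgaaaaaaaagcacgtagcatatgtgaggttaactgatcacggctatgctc

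Of all 32851 promoters of the same length, 6.75% held the AP-1 letters TGANTCA, 16.6% the GATA letters AGATAA or the variant TGATAA, and 18.6% the NFAT letters TGGAAA. The RUNX letters TGTGGT were in 14.05%, the CRE letters TGACGTCA in 1.55% and the SP/KLF letters GGGCGG in 32.7%. The Ltb4r1 promoter held the RUNX letters at 222 to 217 bases before the start, on the other strand, and at 6 to 1 bases before it. It held the SP/KLF letters at 31 to 26 bases, on the other strand. The Ptger2 promoter held a GATA match at 200 to 195 bases and, on the other strand, an NFAT match at 30 to 25 bases before the start. The Gpr183 promoter held none of these letters, and its GC content was 32.0%, against 56.8% for Ltb4r1, 38.0% for Ptger2 and a median of 52.4% over all promoters. The CRE letters, bound by a cyclic AMP responsive factor, were in none of the 9 promoters listed for 7 of the genes, and no promoter was at hand for Adora2a.

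On GRCm38 with the GENCODE vM21 annotation, P2rx7 (ENSMUSG00000029468) lies at chr5:122643911-122691432, Adora2a (ENSMUSG00000020178) at chr10:75316877-75334784, Nt5e (ENSMUSG00000032420) at chr9:88327197-88372092 and Entpd1 (ENSMUSG00000048120) at chr19:40612366-40741602, all on the plus strand. Chromosome 14 holds Ltb4r1 (ENSMUSG00000046908) at chr14:55765962-55768494 and Ptger2 (ENSMUSG00000037759) at chr14:44988195-45003820, on the plus strand, and Gpr183 (ENSMUSG00000051212) at chr14:121952551-121965195, on the minus strand. Ptger4 (ENSMUSG00000039942) lies on the minus strand at chr15:5206661-5244187. Ptger2, Ptger4 and Gpr183 overlap Gm17173, Ttc33 and Ubac2 on the opposite strand. Whether the counting used strand is not given in the sources used here, and the part of reads from such shared stretches was not tested.

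Values below are ordered with the 2 young libraries before the 2 aged ones and meninges before choroid plexus. The libraries contained 3737140, 2295950, 4262917 and 3957717 unique molecular identifiers (UMIs, counts of captured transcripts) in 1111, 718, 1695 and 1277 cells. T cells with a UMI of Cd3d, Cd3e or Cd3g numbered 1007, 605, 1408 and 1094, with medians of 3198, 2978, 2312.5 and 2838.5 UMIs. CD4 T cells (a Cd4 UMI, none of Cd8a or Cd8b1) numbered 254, 160, 362 and 230, CD8 T cells (the reverse) 254, 160, 281 and 473, and T cells with neither 481, 269, 735 and 358. All 6 T cell markers were detected in every class, and Cd4 was at 0 in CD8 T cells as the rule sets. Because CD4 and CD8 T cells had been sorted, the neither class can hold both kinds with the transcript missed. Of markers of other cells, all 4 of neutrophils were at 0, macrophage markers (Adgre1 at 0) reached at most 1.93% of a class, fibroblast markers 0.423% and choroid plexus epithelial markers (Kl and Folr1 at 0) 3.38%. Ighm made up 93.9% of the B cell marker UMIs, and these were detected in 41.9 to 51.2% of cells in the young classes and 14.6 to 36.5% in the aged ones. Pecam1 made up 99.5% of the endothelial marker UMIs, and Cldn5 and Cdh5 were at 0 in every class. Endothelial markers were detected in 6.25 to 20.6% of cells in the young classes and 3.40 to 7.83% in the aged ones. Erythroid markers were detected in 5.20 to 8.27% of cells in the classes of young meninges, 16.9 to 23.5% in those of aged meninges and at most 1.25% in those of the choroid plexus. Between libraries, 0 to 3 cell barcodes were shared.

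At least 1 of the 8 genes was detected in 42.3%, 34.0%, 54.6% and 52.5% of T cells in the same order, and at least 2 of them in 9.83%, 6.94%, 17.0% and 16.5%. Counts were therefore summed over each class of each library and scaled to CPM, counts per 1e+06 UMIs of that sum, which gave 12 sums per gene. Over all classes, the counts behind the values were 1103 UMIs of Gpr183, 414 of Adora2a, 331 of Nt5e, 318 of P2rx7, 315 of Ptger4, 269 of Entpd1, 221 of Ltb4r1 and 180 of Ptger2. Such a sum cannot tell fewer cells with a transcript from less transcript per cell. Brackets give 95% exact intervals, which cover counting error only, neither mice nor the UMIs that share a cell. How many of all genes had intervals apart when cells were split by a marker was not counted. Counts of such pairs below therefore have no background.

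**Figure D1:**
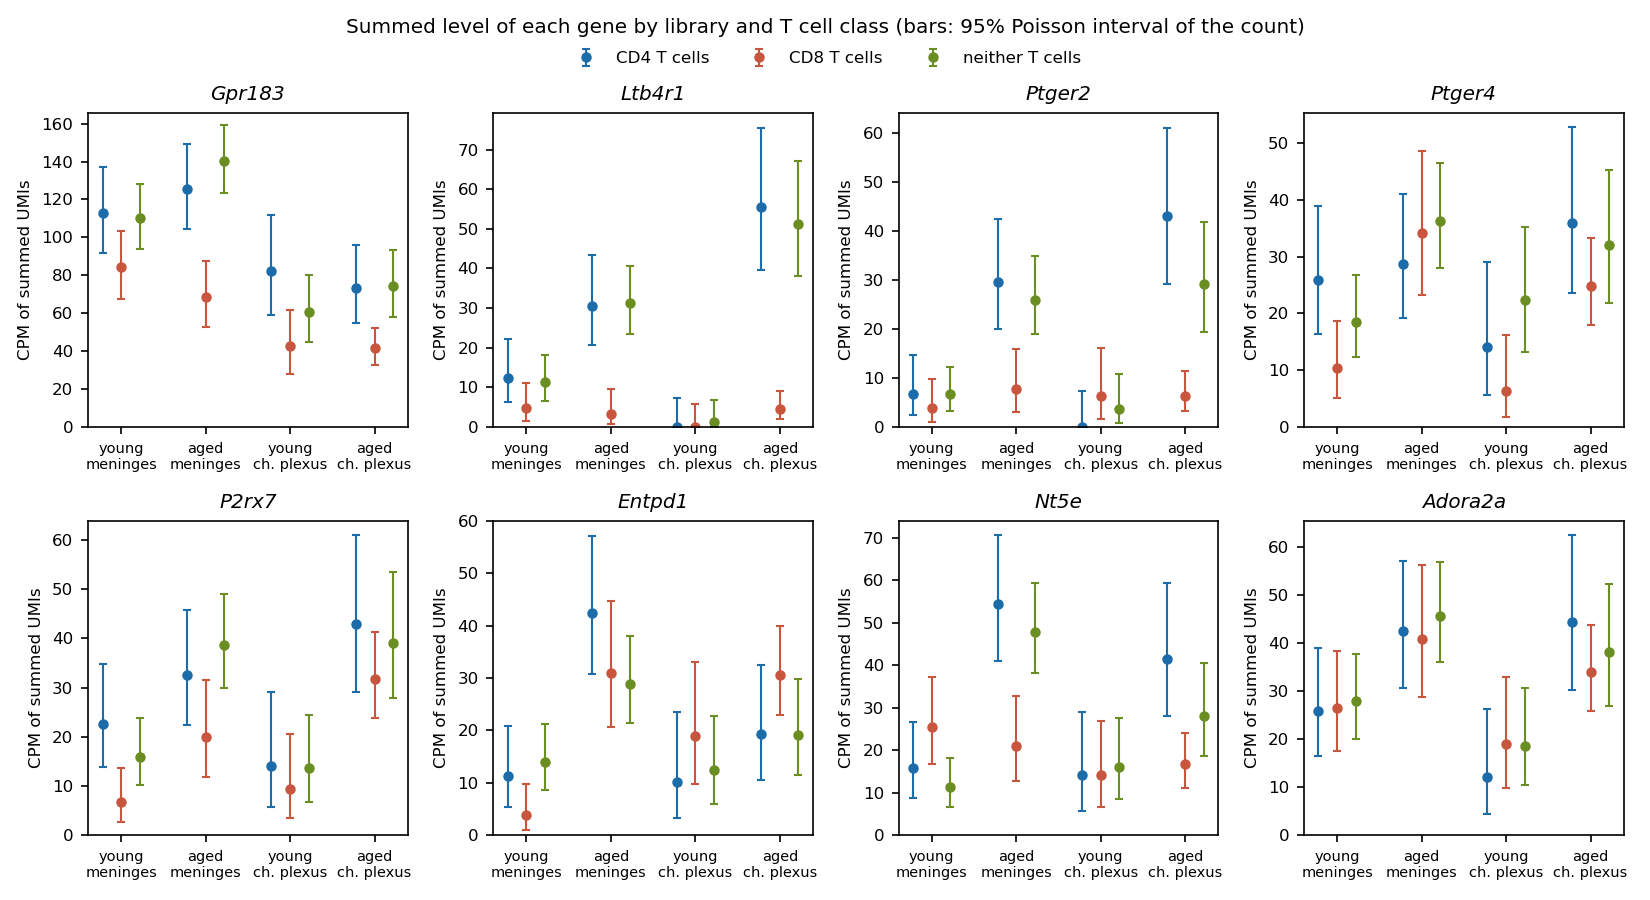
CPM of summed UMIs (vertical axis, linear, own range in each panel) of each gene in CD4, CD8 and neither T cells (colours) of the 4 libraries, with bars for the 95% Poisson interval of the count. Gpr183 sits between 41.5 and 140.3 CPM with meninges above choroid plexus, whereas Ltb4r1 and Ptger2 reach 55.4 and 42.9 CPM in aged CD4 T cells and at most 7.73 CPM in aged CD8 T cells.

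Ages were compared within each tissue and class by the log2 ratio of CPM after adding 10 CPM, and a gene was called higher or lower past a rule of size, a log2 ratio of at least 1 with at least 20 UMIs in the higher sum. Each tissue has its own young library. The 3 classes of a library are separate cells of the same pooled mice, and the neither class can hold CD4 T cells with the transcript missed. The 6 comparisons are therefore not independent. Of the 8 genes, 7 were called higher in aged T cells of at least 1 tissue and class, and 0 were called lower. A lower call needed at least 20 UMIs in the young sum. In the young choroid plexus Gpr183 alone reached that (41, 27 and 49 UMIs in CD4, CD8 and neither T cells). For the other genes a lower call was not possible there, and the 0 is not a result about them. Ptger2 was called higher in 4 of 6 comparisons, P2rx7 and Nt5e in 3, Ltb4r1, Ptger4 and Entpd1 in 2, Adora2a in 1 and Gpr183 in 0. How many of all genes were called in at least 1 of the 6 comparisons was not counted, so these pooled counts have no background. The share of all genes called in each comparison is given below. Every age call of the 8 genes passed the UMI minimum through the aged sum alone. The shares over all genes mix genes of every depth. Shares among genes of like depth were not counted, so a count of the 8 beside its share is a description only.

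In CD4 T cells of the meninges, 3 of the 8 genes with enough UMIs were called higher (Ptger2, Nt5e and Entpd1), where 4.23% of the 5904 genes tested were called higher and 1.86% lower. In CD4 T cells of the choroid plexus, 5 of 7 were called higher (P2rx7, Ltb4r1, Ptger2, Adora2a and Nt5e), against 7.27% higher and 1.92% lower of 4581 genes. Ptger2 and Nt5e were called in CD4 T cells of both tissues. The 5 calls of the choroid plexus became 0 with cells thinned to 1000 UMIs or with classes by at least 2 UMIs. They also became 0 with cells holding markers of other cell types left out. A ratio is not called, whatever its size, when its higher sum has too few UMIs. A lost call need not be a smaller ratio. With thinning Ptger2 was at 2.54 against 2.40 before, and Nt5e at 3.07 against 1.10. Both thinned ratios had too few UMIs in the higher sum. Other ratios did become smaller. With classes by at least 2 UMIs Ltb4r1 fell from 2.71 to 1.54, and thinning lowered Nt5e in meningeal CD4 T cells from 1.32 to 0.62. Without cells holding the other markers, P2rx7 was at 0.98, Ltb4r1 2.10, Ptger2 2.57, Adora2a 1.21 and Nt5e 1.24. The 5 calls became 1 with 50 CPM added and 2 without cells that held Ccr7 or Lef1. Without the latter cells P2rx7 was at 0.18, Adora2a at 0.33 and Ptger2 at 2.61. The 3 calls of the meninges became 0 with 50 CPM added or without cells that held Ccr7 or Lef1, and 1 with thinning or with classes by at least 2 UMIs.

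In meningeal CD8 T cells, 2 of 5 genes were called higher (Ptger4 and Entpd1), against 3.2% higher and 1.83% lower of 5527 genes. In choroid plexus CD8 T cells, 2 of 6 were called higher (P2rx7 and Ptger4), against 2.46% higher and 0.872% lower of 6993 genes. Ptger4 was the gene of the 8 called in CD8 T cells of both tissues. No call was left in CD8 T cells of either tissue with thinning, with 50 CPM added or without cells that held Ccr7 or Lef1.

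Among neither T cells, 2 of 8 genes were called higher in the meninges (Ptger2 and Nt5e), against 3.44% higher and 1.42% lower of 7406 genes. In the choroid plexus 3 of 7 were called higher (P2rx7, Ltb4r1 and Ptger2), against 4.62% higher and 1.83% lower of 5586 genes. With 50 CPM added 0 calls were left in neither T cells of both tissues, with thinning 0 in the choroid plexus, and without cells that held Ccr7 or Lef1 0 in the meninges. The median log2 ratio of the tested genes of the 8 was 0.70 in meningeal and 1.14 in choroid plexus CD4 T cells, 0.48 and 0.55 in CD8 T cells and 0.80 and 0.75 in neither T cells. Over all genes tested the medians were 0.08, 0.16, 0.04, 0.12, 0.05 and 0.13 in that order, again without matching for depth.

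Leaving out the cells with a marker of B cells, macrophages, neutrophils, endothelium, fibroblasts or choroid plexus epithelium removed 19.2 to 58.8% of a class. The 17 age ratios past the rule of size all stayed above 0 without those cells, between 0.62 and 2.57, and 11 of them stayed at 1 or more, whatever the number of UMIs left. Those below 1 in CD8 T cells were Ptger4 in the meninges (0.66) and the choroid plexus (0.89) and P2rx7 in the choroid plexus (0.62). The others were Ptger2 in meningeal CD4 (0.83), P2rx7 in choroid plexus CD4 (0.98) and Ptger2 in choroid plexus neither T cells (0.86). Without the cells that held erythroid markers, a setting chosen after the shares above were seen, all 17 stayed at 1 or more, between 1.06 and 2.73.

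**Figure D2:**
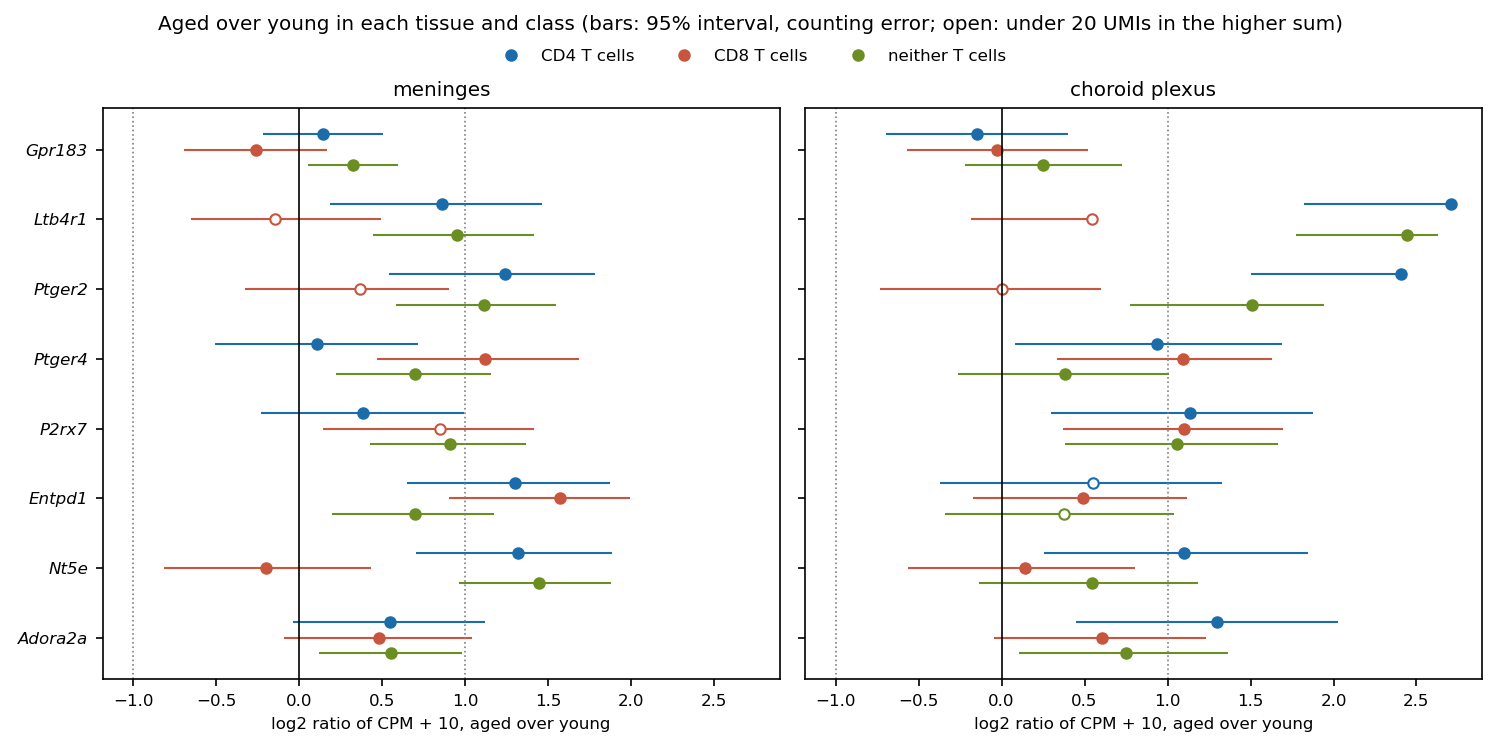
Log2 ratio of CPM + 10, aged over young (horizontal axis), of each gene in the meninges (left) and the choroid plexus (right), with colours for the classes, bars for the 95% interval of counting error, open points for fewer than 20 UMIs in the higher sum and dotted lines at the rule of size. Gpr183 lies between -0.26 and 0.32, and the points farthest to the right are Ltb4r1 (2.71 and 2.44) and Ptger2 (2.40) in the choroid plexus.

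Gpr183 was the only gene of the 8 with at least 20 UMIs in all 12 sums. Its level was lower in the choroid plexus library than in the meningeal library of the same age. It was also lower in CD8 than in CD4 T cells of every library. Over whole classes, aged and young sums of Gpr183 differed less. None of these differences passed the rule of size. With single pooled libraries, neither tissue nor age can be told apart from library. In CD4 T cells Gpr183 was at 113, 82.5, 125 and 73.4 CPM in the 4 libraries in that order, and in neither T cells at 110.2, 60.7, 140.3 and 74.2 CPM. In CD8 T cells it was at 84.2, 42.6, 68.5 and 41.5 CPM. Both choroid plexus libraries lay below the meningeal library of the same age in every class.

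The log2 ratio of choroid plexus over meninges for Gpr183 ran from -0.84 to -0.41 over the 6 combinations of age and class, and in 5 of them the interval lay below 0. The sign was kept in every setting tried except thinning to 1000 UMIs, where the highest of the 6 ratios was 0.18. None passed the rule of size, and none of the other 7 genes was called between tissues in any of the 6 comparisons. Of the 8 genes, 4, 3 and 5 had enough UMIs in young CD4, CD8 and neither T cells, and 8, 6 and 8 in aged ones. Among those with too few, Ltb4r1 in young CD4 T cells was at -1.16 (-1.16 to -0.21), from 0 and 11 UMIs. Entpd1 in young CD8 T cells was at 1.07 (0.30 to 1.59), from 12 and 4 UMIs. Between 0.939 and 3.07% of all genes tested were called lower and 0.253 to 1.04% higher in the choroid plexus. The aged over young log2 ratio of Gpr183 was 0.14 (-0.22 to 0.50) and -0.15 (-0.69 to 0.40) in CD4 T cells of meninges and choroid plexus. It was -0.26 (-0.69 to 0.16) and -0.03 (-0.57 to 0.52) in CD8 T cells. These intervals do not reach the rule of size. They cover counting error between single libraries, so they cannot exclude a change in Gpr183 with age. In meningeal neither T cells the ratio was 0.32 (0.05 to 0.59). With cells that held Ccr7 or Lef1 left out, the age ratios of Gpr183 spread from -0.94 to 1.63 over the 6 smaller pairs of sums.

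Gpr183 was detected in 12.5 to 26.4% of the cells of a class, and in 3.18 to 11.5% after each cell was thinned to 1000 UMIs. The highest count of Gpr183 in a T cell was 8 UMIs, in the aged meninges, where 102 of 300 positive cells held at least 2. In aged meninges and aged choroid plexus, Gpr183 was at 96.1 and 41.8 CPM in cells with a UMI of Cxcr6, a chemokine receptor of tissue T cells, and at 135 and 77.3 CPM in cells without it. This split pools the classes, and Cxcr6 was detected in 54.4 and 67.9% of aged CD8 T cells and 33.4 and 33.5% of aged CD4 T cells. Within CD4, CD8 and neither T cells Gpr183 was lower in Cxcr6 positive cells in all 6 pairs, with intervals apart in choroid plexus CD8 T cells alone (31.1 against 64.3 CPM). In aged choroid plexus it was at 27.6 CPM in 185 cells with gamma-delta receptor constant gene UMIs and at 66.2 CPM in the other 909. Of the 185 cells 155 were CD8 T cells, and within CD8 T cells the values were 29.7 and 48.4 CPM, with intervals that overlapped.

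Ltb4r1, the receptor for leukotriene B4, was nearly absent from the young choroid plexus and low in CD8 T cells of every library. Ltb4r1 was at 12.4, 0, 30.6 and 55.4 CPM in CD4 T cells and at 11.3, 1.24, 31.2 and 51.1 CPM in neither T cells, in the same order of libraries. In CD8 T cells it was at 4.73, 0, 3.31 and 4.61 CPM, from 5, 0, 3 and 8 UMIs. The aged CD4 and neither sums were thus the 4 highest of the 12 for Ltb4r1, and all CD8 sums lay under 5 CPM.

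In choroid plexus CD4 T cells, 40 aged UMIs of Ltb4r1 stood against 0 young UMIs. The aged level was 9.2 times a floor of 3 counts per sum (6.04 CPM). That value leaves out the counting error of the aged sum and is not a lower bound. In neither T cells 51 UMIs stood against 1, a ratio of 41.2 with a counting interval of 7.08 to 1660. The log2 ratios of 2.71 and 2.44 for these comparisons depend on the 10 CPM added. In the meninges the ratio of Ltb4r1 was 0.86 (0.19 to 1.46) in CD4 and 0.95 (0.44 to 1.41) in neither T cells, short of the rule of size.

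Within the aged libraries, CD4 T cells had more Ltb4r1 than CD8 T cells by a log2 ratio of 1.61 (0.92 to 2.01) in the meninges and 2.16 (1.62 to 2.57) in the choroid plexus. In the aged choroid plexus Ltb4r1 was detected in 10.0% of CD4 and 1.27% of CD8 T cells. After thinning to 1000 UMIs the shares were 3.93% (1.81 to 7.33) and 0% (0 to 0.788). All cells analysed were sorted T cells, so no cell type that should lack Ltb4r1 gives a background share.

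Few cells carried the Ltb4r1 counts. The 33 UMIs of the young meninges came from 14 cells, 10 of which held at least 2, and the 109 UMIs of the aged choroid plexus came from 67 cells with up to 6 UMIs. The interval of a sum is too narrow to that extent.

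The gene whose level was most like that of Ltb4r1 over the 12 sums was Il1rl1, which encodes the receptor for IL-33 (Pearson r = 0.97 of log2 CPM + 10, among 5904 genes). Il1rl1 was at 7.90, 0, 29.6 and 52.6 CPM in CD4 T cells. A UMI of Il1rl1 was present in 15, 2, 55 and 72 T cells, and these cells held 22 of 33, 1 of 1, 29 of 89 and 52 of 109 Ltb4r1 UMIs. This split was made after the likeness had been seen, so it describes the cells and supports nothing further.

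Aged T cells with an Il1rl1 UMI had 146 CPM of Ltb4r1 in the meninges and 139.8 CPM in the choroid plexus, against 16.7 and 17.4 CPM in cells without one. Of the 55 and 72 such cells, 20 and 23 were CD4, 4 and 9 CD8, and 27 and 41 also held Gata3, a transcription factor of type 2 T cells, while 17 and 12 held Foxp3, the factor that defines regulatory T cells. They were deeper than the others, with medians of 3239 against 2283 and 4742 against 2782.5 UMIs, and the part of depth in the split was not tested. In young meninges the 15 cells with an Il1rl1 UMI had 347 CPM of Ltb4r1 (217 to 525), above the 146 CPM (97.8 to 210) of the aged ones. Cells without an Il1rl1 UMI can include cells in which that transcript was missed. In cells without one, Ltb4r1 was at 16.7 CPM in the meninges of aged mice, against 3.18 CPM in young ones. The log2 ratio was 1.02 (0.68 to 1.27). In the choroid plexus it was at 17.4 against 0 CPM, 11.7 times a floor of 3 counts (1.48 CPM), without the counting error of the aged sum.

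Other state markers split Ltb4r1 as well. With and without Gzmk, a granzyme of memory T cells, it was at 1.61 and 34.1 CPM in the meninges of aged mice, and 5.41 and 43.2 CPM in their choroid plexus. With and without Cxcr6 it was at 37.8 and 14 CPM and at 40.3 and 17.1 CPM. With and without Cxcr3, a chemokine receptor of type 1 T cells, it was at 12.6 and 32.7 CPM and at 15.9 and 40.4 CPM. Intervals did not overlap in these 6 pairs, which pool the classes. Gzmk was detected in 59.8 and 52.2% of CD8 T cells and 17.4 and 17.0% of CD4 T cells in the 2 aged libraries, and Ltb4r1 was under 5 CPM in CD8 T cells.

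Within neither T cells, Ltb4r1 with and without Gzmk was at 2.27 and 41.0 CPM in the meninges and at 0 and 60.1 CPM in the choroid plexus. With and without Cxcr6 it was at 65.2 and 15.3 CPM and at 106 and 17.8 CPM, and with and without Cxcr3 at 6.11 and 46.4 CPM and at 14.5 and 65.1 CPM. Intervals were apart in these 6 pairs as well, again without a share over all genes. In CD4 T cells the Gzmk values were 5.15 and 36.7 CPM in the meninges and 8.54 and 64.5 CPM in the choroid plexus, where 1 UMI of Ltb4r1 lay in the Gzmk positive cells of each tissue and the intervals overlapped. With and without Cxcr6, CD4 T cells had 55.3 and 16.9 CPM, with intervals apart, and 87.0 and 34.5 CPM, with intervals that overlapped. With and without Cxcr3 they had 29.4 and 31.8 CPM and 30.4 and 72.8 CPM, with overlapping intervals in both tissues.

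**Figure D3:**
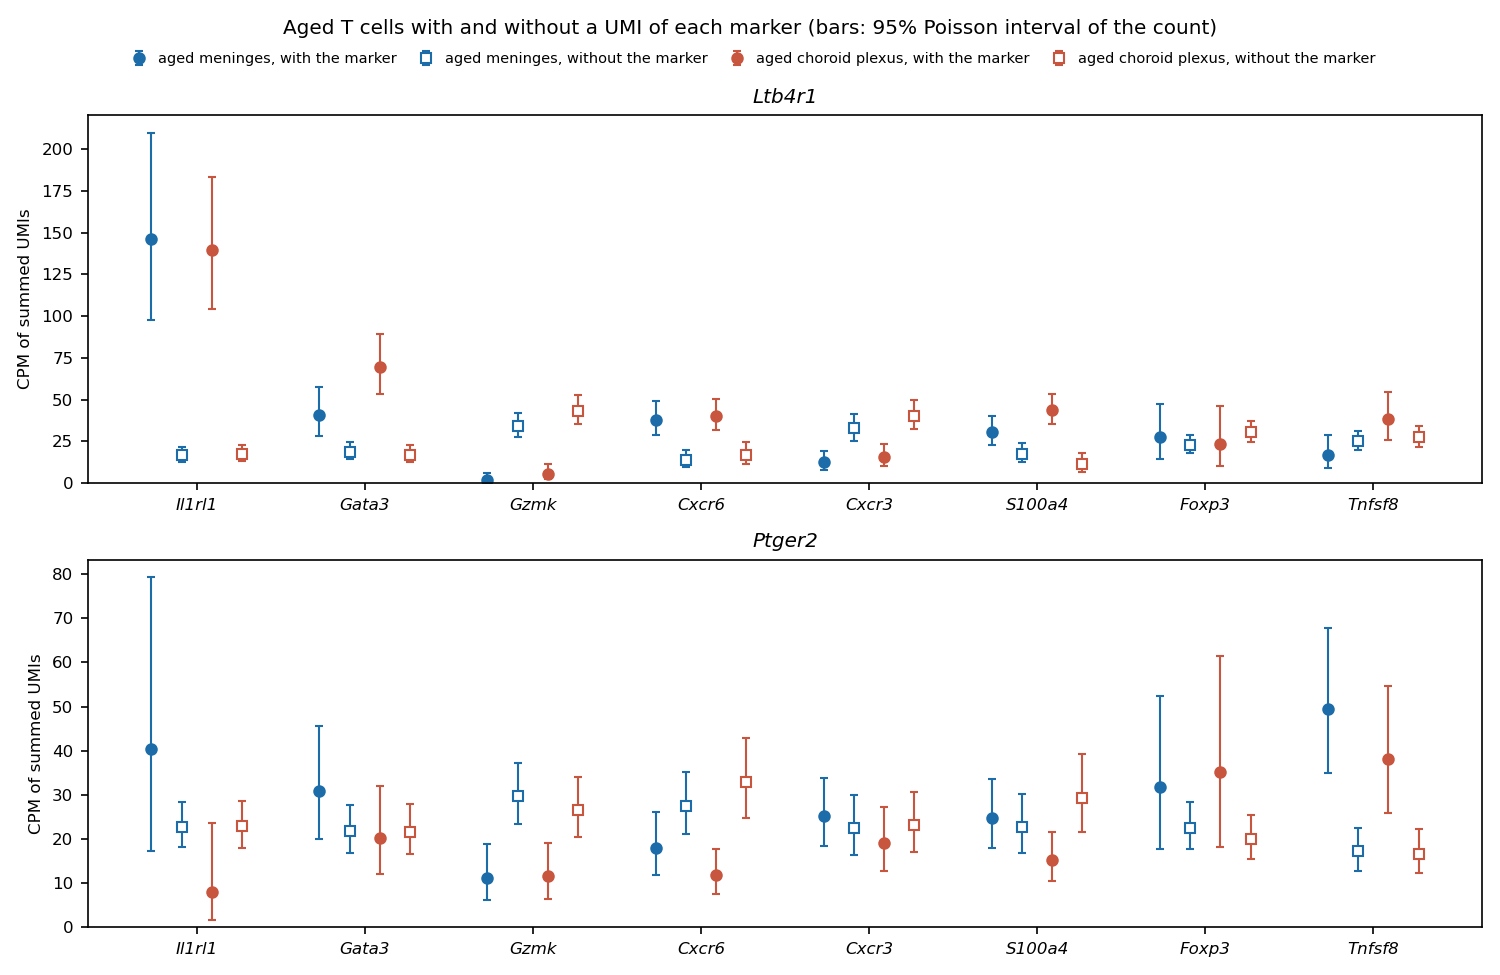
CPM of Ltb4r1 (top) and Ptger2 (bottom) in aged T cells with (filled) and without (open) a UMI of each marker on the horizontal axis, in the meninges (blue) and the choroid plexus (red), with bars for the 95% Poisson interval of the count. Ltb4r1 is at 146 and 139.8 CPM with Il1rl1 and at 1.61 and 5.41 CPM with Gzmk, and Ptger2 is at 49.4 and 38.2 CPM with Tnfsf8.

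Ptger2, the EP2 receptor for prostaglandin E2, was also highest in aged CD4 and neither T cells. Ptger2 was at 6.77, 0, 29.6 and 42.9 CPM in CD4 T cells and at 6.64, 3.72, 26.0 and 29.1 CPM in neither T cells. CD8 T cells had 3.78, 6.30, 7.73 and 6.34 CPM of Ptger2. The 4 aged CD4 and neither sums lay above all other sums of Ptger2, and between the lowest of them and the next sum the intervals did not overlap, the only such gap between neighbours in the orders of the 8 genes.

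The aged over young log2 ratio of Ptger2 was 1.24 (0.54 to 1.78) in meningeal CD4 T cells and 1.11 (0.59 to 1.55) in meningeal neither T cells. In choroid plexus CD4 T cells 31 UMIs stood against 0, 7.1 times the floor of 3 counts, without the counting error of the aged sum. In neither T cells 29 stood against 3, a ratio of 7.82 with a counting interval of 2.42 to 40.1. In CD8 T cells Ptger2 stayed under 20 UMIs, with log2 ratios of 0.36 (-0.32 to 0.90) and 0.00 (-0.73 to 0.60). CD4 over CD8, it was called higher in aged meninges (1.16, 0.47 to 1.72) and aged choroid plexus (1.70, 1.12 to 2.17).

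Aged cells with a UMI of Tnfsf8, which encodes CD153, had 49.4 CPM of Ptger2 in the meninges and 38.2 CPM in the choroid plexus, against 17.2 and 16.7 CPM in cells without one. With and without Gzmk, Ptger2 was at 11.3 and 29.8 CPM in aged meninges, while the values were 11.6 and 26.7 CPM in aged choroid plexus. With and without Cxcr6 it was at 17.9 and 27.6 CPM and at 11.9 and 32.9 CPM. Both markers were more frequent in CD8 T cells, where Ptger2 was at 7.73 and 6.34 CPM. Within CD4, CD8 and neither T cells the intervals of Ptger2 with and without Gzmk overlapped in all 6 pairs. With and without Tnfsf8 the intervals were apart in meningeal neither T cells (52.4 and 19.9 CPM) and overlapped in the other 5 pairs.

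Ptger4, the EP4 receptor for the same prostaglandin, was spread over the classes. It was at 26.0, 14.1, 28.6 and 36.0 CPM in CD4 T cells, at 10.4, 6.30, 34.2 and 24.8 CPM in CD8 T cells and at 18.6, 22.3, 36.4 and 32.1 CPM in neither T cells. The aged over young log2 ratio of Ptger4 in CD8 T cells was 1.12 (0.47 to 1.69) in the meninges and 1.09 (0.33 to 1.63) in the choroid plexus. In CD4 T cells it was 0.10 (-0.51 to 0.71) and 0.93 (0.08 to 1.69). In young meninges Ptger4 was higher in CD4 than in CD8 T cells, with a log2 ratio of 0.82 (0.14 to 1.42), and in the other 3 libraries the interval of that ratio included 0. In aged choroid plexus Ptger4 was at 47.2 CPM in cells with Tnfsf8 and 26.5 CPM in cells without it, and in aged meninges at 35.1 and 34.7 CPM. Within each class of both tissues the intervals of that split overlapped.

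P2rx7, the channel opened by extracellular ATP, was at 22.6, 14.1, 32.6 and 42.9 CPM in CD4 T cells. It was at 6.62, 9.46, 19.9 and 31.7 CPM in CD8 T cells and at 15.9, 13.6, 38.7 and 39.1 CPM in neither T cells. Every aged sum of P2rx7 lay above the young sum of the same tissue and class, and in the choroid plexus all 3 classes were called higher. The log2 ratios there were 1.14 (0.30 to 1.88) in CD4, 1.10 (0.37 to 1.69) in CD8 and 1.05 (0.38 to 1.66) in neither T cells. The last fell to 0.99 when totals were scaled by the median of ratios. In the meninges the ratios of P2rx7 were 0.39 (-0.23 to 0.99), 0.85 (0.15 to 1.42), with fewer than 20 UMIs, and 0.91 (0.43 to 1.36).

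In aged choroid plexus P2rx7 was at 67.5 CPM in the 72 cells with a Foxp3 UMI and 34.4 CPM in the others, and in aged meninges at 46.7 and 31.0 CPM, where the intervals overlapped. Of the 72 cells 20 were CD4, 17 CD8 and 28 neither T cells, and the rest held both Cd4 and Cd8 UMIs. The part of class and depth in this split was not tested. With and without Cxcr6, P2rx7 was at 47.7 and 23.2 CPM in aged meninges, but at 37.3 and 37.8 CPM in aged choroid plexus. With and without Gzmk it was at 17.7 and 40.4 CPM in aged meninges, while the choroid plexus had 34.8 and 39.0 CPM. The splits of P2rx7 by Cxcr6 and Gzmk had intervals apart in the meninges alone, and the difference between tissues was not tested. Within the meningeal classes the intervals were apart for Cxcr6 in neither T cells (67.0 and 25.4 CPM) and overlapped in the other classes, and for Gzmk they overlapped in all 3.

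Entpd1, which encodes CD39, was at 11.3, 10.1, 42.5 and 19.4 CPM in CD4 T cells. It was at 3.78, 18.9, 30.9 and 30.5 CPM in CD8 T cells and at 13.9, 12.4, 28.9 and 19.0 CPM in neither T cells. The differences called were both in the meninges, with log2 ratios of 1.30 (0.65 to 1.88) in CD4 and 1.57 (0.90 to 2.0) in CD8 T cells. Those of the choroid plexus were 0.55 (-0.37 to 1.33), with fewer than 20 UMIs, and 0.49 (-0.17 to 1.12), and the difference between tissues was not tested. Entpd1 in CD8 T cells of young meninges rested on 4 UMIs.

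Nt5e, which encodes CD73, was at 15.8, 14.1, 54.3 and 41.6 CPM in CD4 T cells and at 11.3, 16.1, 47.9 and 28.1 CPM in neither T cells. CD8 T cells had 25.5, 14.2, 21.0 and 16.7 CPM of Nt5e. The aged over young log2 ratio of Nt5e was 1.32 (0.71 to 1.89) and 1.10 (0.26 to 1.84) in CD4 T cells of meninges and choroid plexus. It was 1.44 (0.96 to 1.88) and 0.54 (-0.14 to 1.19) in neither T cells. For CD8 T cells the values were -0.20 (-0.82 to 0.43) and 0.14 (-0.56 to 0.80), intervals that do not reach the rule of size.

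CD4 over CD8, the log2 ratio of Nt5e was -0.46 (-1.09 to 0.20) in young meninges and -0.01 (-0.89 to 0.89), from 7 and 9 UMIs, in young choroid plexus, so that no order of the lineages was seen there beyond counting error. It was 1.05 (0.47 to 1.61) and 0.95 (0.38 to 1.49) in aged meninges and choroid plexus, and the difference between ages was not tested. In aged meninges Nt5e was at 24.9 CPM with Gzmk and 50.6 CPM without it, and at 62.4 CPM with Tnfsf8 and 37.0 CPM without it. In aged choroid plexus the corresponding values were 20.1 and 30.1 CPM and 34.4 and 24.4 CPM, with intervals that overlapped. Within each class of both tissues the intervals of these splits of Nt5e overlapped.

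Adora2a, the receptor for adenosine, was at 26.0, 12.1, 42.5 and 44.3 CPM in CD4 T cells, at 26.5, 18.9, 40.9 and 34.0 CPM in CD8 T cells and at 27.9, 18.6, 45.6 and 38.1 CPM in neither T cells. Every aged sum of Adora2a was above its young counterpart, with log2 ratios between 0.48 and 1.30. The ratio past the rule of size was that of choroid plexus CD4 T cells, 1.30 (0.45 to 2.03), from 6 young and 32 aged UMIs. Between lineages Adora2a did not differ beyond counting error, since the log2 ratio of CD4 over CD8 was between -0.39 and 0.30 and every interval included 0. With and without Foxp3 it was at 67.9 and 40.0 CPM in aged meninges, while the choroid plexus had 58.7 and 35.9 CPM, and the intervals overlapped in both tissues.

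CD4 and CD8 T cells of the same library were compared by the same rule. In young meninges 0 of 5 tested genes of the 8 were called, where 1.76% of 5557 genes were called higher and 1.04% lower in CD4. In young choroid plexus 0 of 1 was called, against 1.44% and 2.1% of 3760 genes. With 254 and 160 cells in each of these young classes, the other 3 and 7 genes had fewer than 20 UMIs in both sums.

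In aged meninges 3 of 8 genes were called higher in CD4 (Ltb4r1, Ptger2 and Nt5e), against 3.43% higher and 1.09% lower of 5804 genes. In aged choroid plexus 2 of 8 were called higher (Ltb4r1 and Ptger2), against 2% higher and 1.35% lower of 7040 genes. The median log2 ratio of the tested genes was 0.38, 0.82, 0.65 and 0.55, against 0.13, 0.06, 0.16 and 0.06 over all genes. Scaling totals by the median of ratios lowered the median of all genes by 0.11 to 0.13 in these 4 comparisons and moved the share of higher among all calls from 62.8, 40.6, 76.0 and 59.7% to 47.4, 29.3, 65.8 and 47.2%. Nt5e in aged meninges fell to 0.94 with it, and the calls of Ltb4r1 and Ptger2 were kept. The calls between lineages passed the UMI minimum through the CD4 sum alone, and the shares of all genes were not matched by depth.

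Gpr183 was higher in CD4 than in CD8 T cells of all 4 libraries, with log2 ratios of 0.38 (-0.00 to 0.77), 0.82 (0.19 to 1.44), 0.79 (0.38 to 1.19) and 0.70 (0.24 to 1.14). When cells with Ccr7 or Lef1 were left out, these ratios ran from -0.10 to 0.96 over the 4 libraries. P2rx7 was higher in CD4 T cells of young meninges, with a log2 ratio of 0.97 (0.27 to 1.53). Entpd1 in aged choroid plexus was at 19.4 CPM in CD4 and 30.5 CPM in CD8 T cells, a log2 ratio of -0.46 (-1.06 to 0.16), whose interval included 0.

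The makeup of the classes moved with age. A UMI of the naïve markers Ccr7 or Lef1 was found in 68.1 to 84.4% of the cells of each young class and in 19.3 to 26.1% of each aged class. The genes were therefore also measured in T cells with such a UMI (777, 471, 305 and 250 cells) and without one (230, 134, 1103 and 844 cells). Cells without the markers had medians of 3009.5, 2962.5, 2152 and 2686.5 UMIs, so that some of them can be naïve cells in which the transcripts were missed. A UMI of Foxp3, Ikzf2, Ctla4 or Il2ra, listed as regulatory T cell markers, was detected in 5 to 16.4% of cells in the young classes and 15.6 to 47.8% in the aged ones. Foxp3 itself was detected in 0 to 5.20% and 3.20 to 12.2%. Markers of effector memory T cells were detected in 27.9 to 62.5% and 85.8 to 97.3%. The part of these shifts in the ratios above was not tested beyond the split.

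In the young libraries the marker-negative cells had the higher levels of most of the genes. P2rx7 was at 7.89 CPM with and 43.8 CPM without the markers in young meninges, and at 7.62 and 30.7 CPM in young choroid plexus. Entpd1 was at 3.59 and 34.2 CPM and at 4.45 and 46.0 CPM, and Adora2a at 18.3 and 60.2 CPM and at 9.53 and 48.2 CPM. Ptger4 followed them, with 12.2 and 39.7 CPM and 7.62 and 41.6 CPM. Nt5e did not, with 15.8 and 20.5 CPM and 15.2 and 13.1 CPM, and Gpr183 in young choroid plexus had the opposite order, 69.9 and 35.0 CPM.

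In the aged libraries this gap was smaller or gone for P2rx7, with 31.5 against 33.5 CPM in the meninges and 36.9 and 37.7 CPM in the choroid plexus. Adora2a was at 32.4 and 47.7 CPM and at 38.9 and 37.7 CPM. Entpd1 was at 24.8 and 35.3 CPM and at 16.5 and 30.1 CPM. Levels in marker-positive cells were thus closer to those in marker-negative cells in the aged than in the young libraries for these 3 genes.

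**Figure D4:**
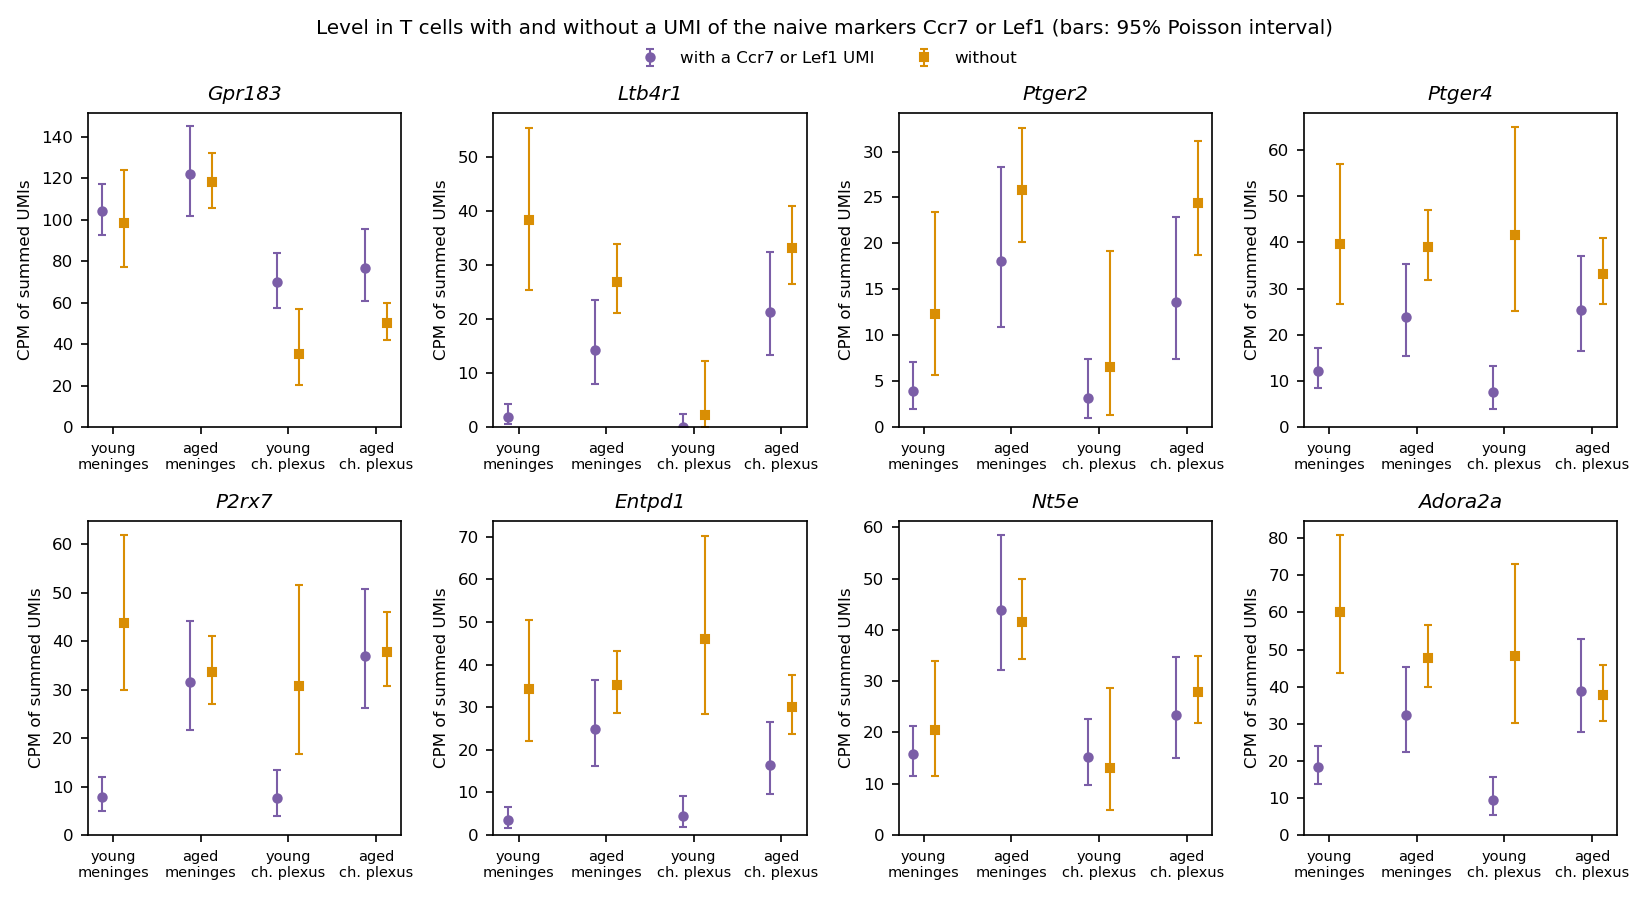
CPM of summed UMIs (vertical axis, own range in each panel) of each gene in T cells with (purple circles) and without (orange squares) a UMI of Ccr7 or Lef1 in the 4 libraries, with bars for the 95% Poisson interval of the count. P2rx7, Entpd1, Adora2a and Ptger4 sit low in marker-positive cells of the young libraries and nearer to the marker-negative cells in the aged ones, while Gpr183 shows no gap in that direction.

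Among marker-negative cells, the age ratios of P2rx7, Adora2a and Entpd1 lay between -0.48 and 0.23, and the difference from marker-positive cells was not tested. The aged over young log2 ratio of P2rx7 was -0.31 (-0.79 to 0.19) in the meninges and 0.23 (-0.41 to 0.88) in the choroid plexus. For Adora2a it was -0.28 (-0.71 to 0.16) and -0.29 (-0.85 to 0.30), and for Entpd1 0.04 (-0.48 to 0.55) and -0.48 (-1.06 to 0.12). In these cells none of the 3 genes was past the rule of size in either tissue.

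In marker-positive cells P2rx7 was higher in the aged library by 1.21 (0.72 to 1.66) in the meninges and 1.41 (0.86 to 1.89) in the choroid plexus. Adora2a was at 18.3 against 32.4 CPM in the meninges (young, then aged), and 9.53 against 38.9 CPM, a ratio of 1.32, in the choroid plexus. For Entpd1 the meningeal ratio was 1.36 and that of the choroid plexus 0.88. A single Ccr7 or Lef1 UMI marks cells, not a pure naïve population.

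Ltb4r1, Ptger2 and Nt5e kept a difference in marker-negative cells of at least 1 tissue. For Ltb4r1 it was 1.82 (0.92 to 2.11) in the choroid plexus but -0.39 (-0.89 to 0.13) in the meninges, where the young marker-negative cells already held 38.3 CPM. For Ptger2 it was 0.68 (0.04 to 1.25) in the meninges and 1.05 (0.19 to 1.63) in the choroid plexus. For Nt5e it was 0.75 (0.18 to 1.31) and 0.71 (-0.08 to 1.40).

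By class, the marker-negative CD4 T cells left P2rx7 in the choroid plexus at 0.18 (-1.28 to 1.70), from 3 young and 22 aged UMIs. Ptger2 in meningeal CD4 T cells was at 0.36 (-0.71 to 1.39) and Entpd1 at 0.29 (-0.64 to 1.24). Nt5e in meningeal neither T cells remained at 0.89 (0.09 to 1.66). The young marker-negative classes are small, and these intervals are wide.

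The rest of each pathway was counted from 5 lists that leave out the 8 genes. Over all genes 2.46 to 7.27% were called higher and 0.872 to 1.92% lower in the 6 comparisons of ages, and the counts below pool those comparisons. Of 9 leukotriene genes, 1 to 3 were tested in a comparison of ages, and 3 of 11 values were called higher and 0 lower. These were Alox5ap, needed for leukotriene synthesis, in meningeal CD4 T cells (23 against 1 UMI), and Cysltr1, a receptor for cysteinyl leukotrienes, in neither T cells of meninges (24 against 0 UMIs) and choroid plexus (24 against 1). Alox5, a leukotriene synthesis gene of the same list, had no UMI in any sum. Of 16 prostanoid genes, 2 to 4 were tested, and 1 of 15 values was called higher (Hpgds, a prostaglandin D2 synthase, in choroid plexus CD8 T cells) and 3 lower, all of Tbxa2r. Of 13 oxysterol genes, 2 to 6 were tested and 0 of 30 values were called, and Cyp7b1, an enzyme that makes the EBI2 ligand, had no UMI in any sum.

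Tbxa2r, the thromboxane receptor, went from 46.3 CPM to 9.88 CPM in meningeal CD4 T cells, a log2 ratio of -1.5, and from 50.3 to 11.1 CPM in those of the choroid plexus (-1.52). In CD8 T cells its ratio was -0.53 and -0.48. Cd38, which degrades extracellular NAD, went from 10.4 to 30.9 CPM in meningeal CD8 T cells (1.0) and from 15.8 to 52.4 CPM in those of the choroid plexus (1.28). Tbxa2r and Cd38 were the genes of the lists past the rule in both tissues in CD4 or CD8 T cells. The meningeal ratio of Cd38 lay at the threshold, and it was 0.94 with totals scaled by the median of ratios and -0.072 without cells that held Ccr7 or Lef1. For Tbxa2r the meningeal ratio was -0.69 without cells that held markers of other cell types and -0.76 without cells that held Ccr7 or Lef1.

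Of 25 purine genes, 4 to 10 were tested, and 3 of 41 values were called higher, all of Cd38, and 1 lower, that of Dpp4 in choroid plexus CD8 T cells (-1.08). Of 17 genes of cyclic AMP signalling, 12 to 13 were tested, with 6 of 77 values called higher and 3 lower. Crem, a cyclic AMP responsive regulator, accounted for 3 of the higher ones, with log2 ratios of 1.11 in meningeal neither T cells and 1.02 and 1.03 in choroid plexus CD4 and CD8 T cells. Pde4b, which breaks down cyclic AMP, was lower in choroid plexus CD4 (-1.59) and neither T cells (-1.10). The median log2 ratio over the tested values was 0.27 for the purine, 0.47 for the leukotriene, 0.23 for the prostanoid, -0.08 for the oxysterol and 0.17 for the cyclic AMP list, beside 0.04 to 0.16 over all genes tested in a comparison. The genes named from the lists other than Tbxa2r and Cd38 were chosen after their values were seen.

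Genes most like each of the others in level over the 12 sums were found by the same Pearson correlation, which is a description, since the sums share libraries and depth. For Gpr183 they were Pim1 (0.95), Klf6 (0.95) and Cited2 (0.94), and Pim1, a kinase, was at 214, 129, 257 and 118 CPM in CD4 T cells. After Il1rl1, Ltb4r1 was closest to Tiam1 and Bmp7 (0.97 and 0.95). Ptger2 was closest to Ifitm2, Pdcd1lg2 and Etv6 (0.96, 0.96 and 0.95) and Ptger4 to Rdm1, Scoc and Tmem11 (0.93 each). P2rx7 was closest to Dynlt3, Ppp1r11 and Pkp3 (0.96 each), Adora2a to Apobec3, Coro2a and Bhlhe40 (0.96, 0.95 and 0.95), Nt5e to Pou2f2, Arf6 and Lztfl1 (0.91, 0.91 and 0.90) and Entpd1 to Ankrd12, Rab8b and Id2 (0.95, 0.93 and 0.93).

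Cells that held 2 of the genes were few, but each gene alone was found in a minority of cells. In the aged meninges Gpr183, Nt5e, Adora2a and Entpd1 were in 300, 143, 151 and 115 cells. In the aged choroid plexus P2rx7 and Ltb4r1 were in 115 and 67. The overlap given by the single shares was not computed, so the counts do not show that the genes lay in separate cells. The pairs below are examples. In the aged meninges 36 of 1408 T cells held both Gpr183 and Nt5e, 12% of the Gpr183 and 25.2% of the Nt5e positive cells, and 20 held both Adora2a and Entpd1, 13.2% and 17.4% of those. In the aged choroid plexus 15 of 1094 held both P2rx7 and Ltb4r1, 13% of the P2rx7 and 22.4% of the Ltb4r1 positive cells. At these depths a missing UMI does not show that a cell lacked the transcript.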

How the data were processed

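The deposited files hold raw UMI counts per gene and cell, which the authors made from reads with Cell Ranger without normalization. The file headers name version 3.1.0 and the submitters' processing notes version 5.1.0 with STAR, and the labels name mm10. Cells with 200 to 7000 genes and at most 5% mitochondrial UMIs were kept, as in the study's methods, and doublets marked by Scrublet (in scanpy 1.11.5, automatic threshold), which stood in for DoubletFinder, were removed (16, 22, 0 and 5 cells). Cells without a Cd3 UMI (12, 4, 28 and 7) and T cells with both Cd4 and Cd8 UMIs (18, 16, 30 and 33) entered no class. The study's test over cells was not used, since cells are not replicates.

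Counts were summed per library and class and scaled to CPM. Intervals are exact Poisson (levels), conditional binomial (ratios) and Clopper-Pearson (shares), at 95%. On simulated counts the calls recovered known ratios that lay well past the rule of size on the CPM + 10 scale. The simulated UMIs were independent, and the changed genes had at least 20 UMIs expected in the young sum. Every age call of the 8 genes rested on fewer young UMIs, so the simulation does not test those calls. A first criterion, recovery of most genes by their ratio before 10 CPM was added, was not met, because the added CPM shrinks the ratios of low genes, so a low gene that was not called may still differ. The 8 genes were named throughout. From the pathway lists, genes past the rule in both tissues in CD4 or CD8 T cells were named, and for likeness the 3 genes of highest correlation among those with at least 20 UMIs in at least 4 sums, without receptor, immunoglobulin, mitochondrial and ribosomal protein genes. The members and lists were chosen with earlier results of these data known, and Il1rl1 and Gata3 after their values were seen. Of the gene identifiers, 30934 of 31053 matched the annotation. Alternatives for the added CPM, UMI minimum, thinning, scaling, totals, cell filters, doublets, classes and markers were computed. Python 3.11.15, numpy 2.4.6, scipy 1.17.1, pandas 2.3.3, anndata 0.12.19 and matplotlib 3.10.9 were used.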

Additional observations from a re-analysis of the deposited data

How the results depend on the processing

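With 1 library per age and tissue, no replicate could be left out. No paired analysis was possible because the libraries carry no replicate numbers. Of 316 values of the 22 ratios past the rule of size under the alternatives, 258 stayed inside the reported interval, 57 left it and 1 reversed, and of 904 values of the other ratios, 835 stayed inside. All of these rest on the same pooled mice, so they do not bear on variation between mice, and sums under 20 UMIs limit most of them.

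Adding 1 CPM gave, for aged over young, Ptger2 1.98 (meninges CD4), Ltb4r1 5.82 and Ptger2 5.46 (choroid plexus CD4), Entpd1 2.74 (meninges CD8), Ptger4 1.82 (choroid plexus CD8), Ptger2 1.82 and Nt5e 1.99 (meninges neither) and Ltb4r1 4.54 and Ptger2 2.67 (choroid plexus neither). CD4 over CD8, it gave Ltb4r1 2.87 and Ptger2 1.81 in aged meninges and 3.33 and 2.58 in aged choroid plexus. It left 4 genes higher in meningeal neither T cells and 2 in CD4 over CD8 of young meninges. Adding 50 CPM shrank low genes by construction: Ptger2 0.49, Nt5e 0.66 and Entpd1 0.59 (meninges CD4), Ltb4r1 1.08 and Ptger2 0.89 (choroid plexus CD4), Entpd1 0.59 (meninges CD8), Ptger2 0.42 and Nt5e 0.68 (meninges neither), Ltb4r1 0.98 and Ptger2 0.56 (choroid plexus neither), and CD4 over CD8 Ltb4r1 0.60 and Ptger2 0.46 in aged meninges and 0.95 and 0.72 in aged choroid plexus. With it 1 gene was called in choroid plexus CD4 T cells and 0 in the other comparisons with calls.

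Thinning each cell to 1000 UMIs, which leaves fewer counts, gave Ptger2 1.89, Nt5e 0.62 and Entpd1 2.12 (meninges CD4), Ptger2 2.54 and Nt5e 3.07 (choroid plexus CD4), P2rx7 0.30 (choroid plexus CD8), Ptger2 1.71 (meninges neither), and CD4 over CD8 Ptger2 2.28 in aged meninges and Ltb4r1 2.64 and Ptger2 2.26 in aged choroid plexus. The calls were 1 in meninges CD4, 4 in meninges neither, 1 in CD4 over CD8 of aged meninges and 0 elsewhere. Leaving out cells with Ccr7 or Lef1 gave Ptger2 0.36 and Entpd1 0.29 (meninges CD4), P2rx7 0.18, Ptger2 2.61 and Adora2a 0.33 (choroid plexus CD4), Entpd1 0.54 (meninges CD8), Nt5e 0.89 (meninges neither) and the reversed value, P2rx7 -0.040 (choroid plexus neither). It left 2 calls in choroid plexus CD4 T cells and 0 in CD4, CD8 and neither T cells of the meninges and in CD8 T cells of the choroid plexus. The cause was not tested.

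Classes by at least 2 UMIs gave Ltb4r1 1.54 in choroid plexus CD4 T cells and 1.15 in CD4 over CD8 of aged choroid plexus, with 1 call in meninges CD4, meninges CD8, choroid plexus CD8 and CD4 over CD8 of young choroid plexus, and 0 in choroid plexus CD4 and CD4 over CD8 of aged choroid plexus, where fewer cells were left. Totals without mitochondrial, ribosomal protein and receptor genes gave Ltb4r1 3.23 and Ptger2 2.90 (choroid plexus CD4) and Ltb4r1 2.87 (choroid plexus neither), with 1 call in CD4 over CD8 of young meninges. Removing the 5% highest doublet scores gave 2.79 and 2.45 for Ltb4r1 and Ptger2 in choroid plexus CD4 T cells, no filter on cells 2.42 for Ptger2, and the mean of cells' CPM 2.46 for Ptger2, with 4 calls in meninges neither. Leaving out cells with markers of other types gave Ptger2 2.57 there and Ltb4r1 1.58 in CD4 over CD8 of aged choroid plexus, with 1 call in meninges CD8 and 0 in choroid plexus CD4 and CD8 and CD4 over CD8 of aged choroid plexus. No filter on cells, and leaving out gamma-delta cells (chosen after seeing the data), left 1 call in CD8 T cells of each tissue, and no removal of doublets 1 in choroid plexus CD8. Leaving out cells with erythroid markers (also chosen after) gave 2.73 and 2.43 for Ltb4r1 and Ptger2 in choroid plexus CD4 T cells and left 1 call in meninges CD8. Summing CD4 and neither T cells (also chosen after) moved 0 values.

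Over all genes, 61 to 333 were called per direction between ages and 54 to 199 between lineages. With at least 50 UMIs these were 33 to 180 and 20 to 115, with no minimum 98 to 494 and 68 to 237, and at a log2 ratio of 0.58 they were 246 to 840 and 157 to 694. At 0.58, 39 of 100 counts of called genes in the pathway lists moved. Without cells that held Ccr7 or Lef1, Cd38 in meninges CD8 T cells reversed, to -0.072. Of 96 shares of cells, 74 left their interval without thinning and 43 when thinned to 500 UMIs.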
